A study of Mus musculus with 9 samples.

Results

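Tetraspanins are small membrane proteins that cross the bilayer repeatedly and gather integrins, receptors and proteases into patches of the plasma membrane and of endosomes. The 10 genes described here are Tspan13, Tspan31, Tspan32, Cd9, Cd37, Cd53, Cd63, Cd81, Cd82 and Cd151, of 14004 genes in the deposited table. They were selected on symbol, as a list built with the normalised read counts of these 9 libraries by tissue already known, the pattern of Tspan13 among them, so their own tissue differences, and the counts of members past a threshold, are given as descriptions. All 10 are in the table, and all 10 passed the filter on low values, which left 13309 genes. In lymphocytes the family is known for holding antigen receptors, co-receptors and adhesion molecules together, and CD53, CD37 and CD81 are among its members best known from leukocytes.

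The measurements are bulk RNA-seq of iNKT1 cells, invariant natural killer T cells of the T-bet-expressing subset, from thymus, liver and spleen, with 3 libraries per tissue. All 9 came from untreated C57BL/6 mice of the genotype Tbx21CreTg;Rosa26-LSL-YFP+/+, in which a Cre driven by Tbx21, the gene of T-bet, switches on a YFP reporter. Every group therefore carries the same transgenes. The labels do not give the age of the mice or whether a library pooled several of them, and p-values measure the spread between libraries, which may be technical in part. In bulk RNA, fewer cells carrying a transcript and less transcript per cell cannot be told apart.

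Values are the authors' normalised read counts. They correspond to between 18502389 and 39579698 reads per library, except for liver replicate 3 with 3875889. At least 1 read was found for 10476 genes in thymus replicate 1 and 11180 in thymus replicate 2, against 11781 to 13038 in the others. All 8 iNKT1 markers looked for (Cd3d, Cd3e, Cd3g, Tbx21, Il2rb, Klrb1c, Cxcr3 and Zbtb16) were found in all 9 libraries, with a summed value of 90324 to 150968. Spleen replicate 1 had the most transcripts of other leukocytes. It had reads of 5 of 5 B cell markers in the table and of 5 of 5 myeloid markers, with Cd79a at 624.9 and Csf1r at 1297, where spleen replicates 2 and 3 had at most 1.12 of either. Liver replicate 1 also had reads of 5 of 5 B cell markers, and of 3 of 5 myeloid markers. The summed myeloid markers ran from 10.6 to 315.1 in thymus, 25.6 to 1298 in liver and 56.3 to 3040 in spleen. The summed B cell markers, most of them Ighm, ran from 3157 to 5351, 5470 to 8085 and 5260 to 11124. Hepatocyte markers summed to 1269 to 1706 in liver, at most 269.5 in thymus and at most 14.1 in spleen, and platelet markers to at most 70.1 in any library. Immature thymocyte markers summed to 526.3 in thymus replicate 3, with Rag1 at 486.2, and to 16.9 and 0.079 in thymus replicates 1 and 2. They summed to at most 40.9 in liver and 26.3 in spleen. Of 4 endothelial markers looked for, only Pecam1 is in the table. It was at 71.7 to 301.6 in thymus, 458.3 to 670.8 in liver and 393.6 to 1335 in spleen. Erythroid markers summed to at most 480.1 in any library. Xist was at 84543 or more in the library numbered 2 of each tissue, at 16531 in thymus replicate 3 and at most 125.2 in the other 5. Libraries of the same tissue thus differed in Xist, and the fit with only the libraries numbered 1 and 3 still held thymus replicate 3. The part of the marker transcripts and of Xist in the differences below was not tested. A value given without 1 library also leaves out everything else in that library, so it is no test of that part.

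The genes lie on 6 chromosomes, and 4 of the 10 are on chromosome 7. Positions are from GENCODE M21 on GRCm38, the build (mm10) named in the submitters' processing notes. Tspan13, ENSMUSG00000020577, is at chr12:36014557-36042500 on the minus strand, and its exons cover 2474 bases. Cd53, ENSMUSG00000040747, is at chr3:106759921-106790149 on the minus strand, with 1742 exonic bases. Their upstream sequences are shown because, taking for each of the 10 its largest fitted difference over the 3 pairs of tissues, that of Tspan13 was the highest and that of Cd53 the lowest. Both are from the RefSeq promoter table on GRCm38.p6 and read 5′ to 3′ on the strand of the gene, up to the base before the annotated transcripts, chr12:36042501-36042728 and chr3:106790150-106790399. Capitals mark matches to the motifs searched.
Tspan13: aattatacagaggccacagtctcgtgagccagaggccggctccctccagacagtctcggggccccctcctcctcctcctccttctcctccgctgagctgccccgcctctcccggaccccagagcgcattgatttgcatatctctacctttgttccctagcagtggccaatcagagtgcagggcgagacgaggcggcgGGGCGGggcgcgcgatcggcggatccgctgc
Cd53: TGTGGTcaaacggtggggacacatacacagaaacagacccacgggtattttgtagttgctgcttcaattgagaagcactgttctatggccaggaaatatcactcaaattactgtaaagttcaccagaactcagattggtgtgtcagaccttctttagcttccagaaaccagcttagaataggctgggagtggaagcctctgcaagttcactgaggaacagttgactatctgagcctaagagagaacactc

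The Tspan13 stretch has 228 bases, 65.4% of them G or C, and 18 CpG dinucleotides. The Cd53 stretch has 250 bases, 45.2% G or C and 2 CpGs. Over all 32817 upstream windows of 250 bases in the table the medians were 52.4% and 6 CpGs. The capitals in Tspan13 are 1 match to the GC box GGGCGG, present in 32.7% of all windows, and those in Cd53 are 1 match to the RUNX motif TGTGGT, present in 14.0%. A T-box motif (GGTGTGA, in 3.33% of windows), a KLF motif (CACACCC, 6.93%), an ETS motif (GGAAGT, 19.7%) and a TATA box (TATAAA, 12.4%) were searched on both strands and had no match in either. The T-box motif and the reverse strand of the KLF motif can overlap in all but their end bases, and a match is a description of the letters only. Of the 14 windows of the 10 genes, 7 held a GC box and 0 a TATA box.

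Tspan13 encodes a less studied tetraspanin. Its transcript was low in thymic iNKT1 cells and several-fold more abundant in liver and spleen. In thymus replicates 1, 2 and 3 the value was 58.3, 68.3 and 292.1. In liver replicates 1, 2 and 3 it was 1997, 998.1 and 1682, and in spleen replicates 1, 2 and 3 it was 869.3, 1300 and 2492. Every liver and spleen library lay above every thymus library, with the lowest of them 2.98-fold above thymus replicate 3, the highest thymus library. The means were 139.6 ± 132.2 in thymus, 1559 ± 510.5 in liver and 1554 ± 840.5 in spleen (SD, n = 3 each), which is 11.2-fold and 11.1-fold higher than in thymus. On the log2(value + 1) scale the fitted difference was 3.82 (SE 0.75) in liver against thymus and 3.73 (SE 0.75) in spleen against thymus. The median over all genes tested was 0.29 and 0.33, so Tspan13 lay 3.52 and 3.41 above it. Between liver and spleen the fitted difference was 0.08 (SE 0.75), or -0.01 with edgeR on the recovered reads, and their values overlapped. The thymus values rest on 52, 59 and 233 reads, and the liver and spleen values on 278 to 4154. Spleen replicate 1, with the most B cell and myeloid transcripts of the spleen, had its lowest Tspan13, and without it the spleen against thymus difference was 4.08. Liver replicate 1, with the most B cell and myeloid transcripts of the liver (summed values of 8085 and 1298), had its highest Tspan13, and without it the liver against thymus difference was 3.61. Neither difference passed the threshold without that library, and the part of these transcripts in them was not tested. Thymus replicate 3, the thymus library with the most immature thymocyte transcripts (a summed value of 526.3), had the highest Tspan13 of the thymus. The part of those transcripts in its value was not tested either.

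**Figure D1:**
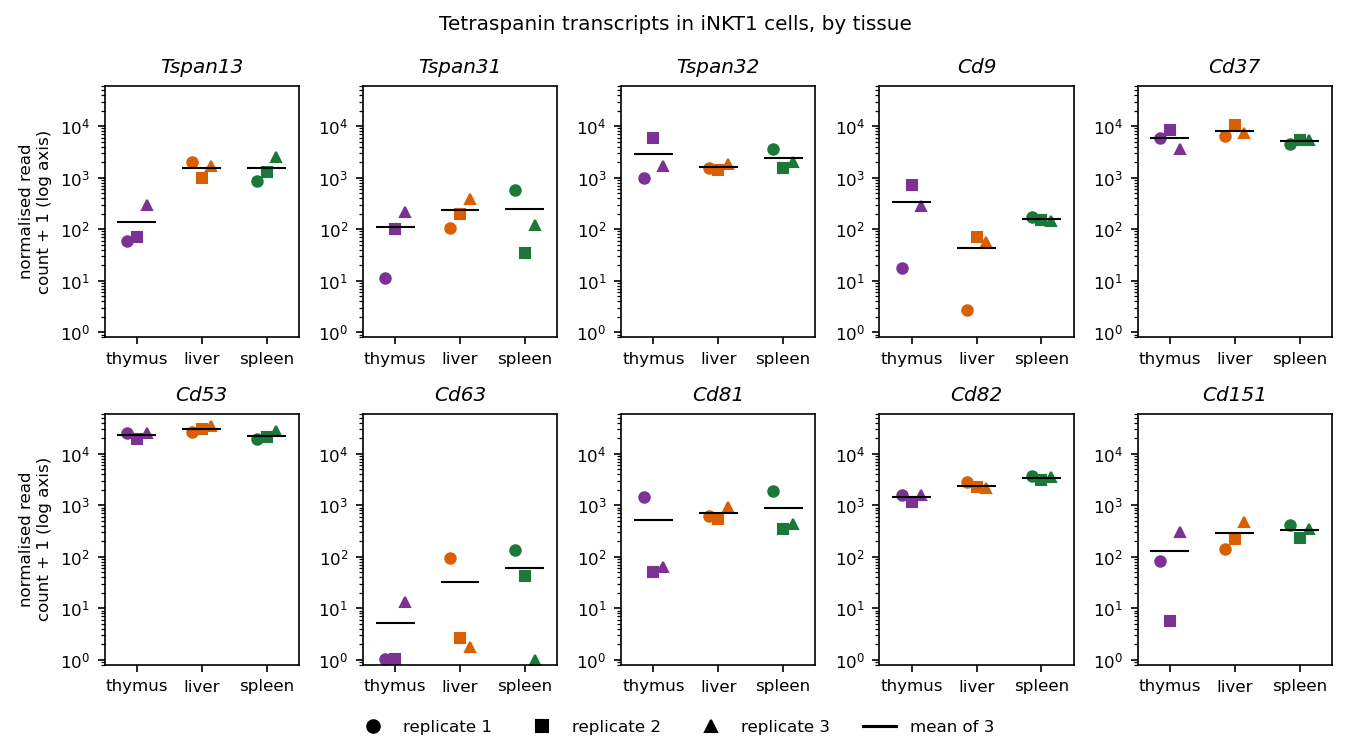
Normalised read count plus 1 on a log axis for each of the 10 tetraspanins, by tissue, with 1 point per library (circle, square and triangle for replicates 1, 2 and 3) and a line at the mean of the 3. The 3 thymus points of Tspan13 lie between 58.3 and 292.1 and all 6 liver and spleen points between 869.3 and 2492, while those of Cd53 lie between 19116 and 34914 in every tissue.

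Counted over all genes, Tspan13 was the 1 member of 10 past an adjusted p of 0.05 (limma-trend, Benjamini-Hochberg) in liver against thymus, where 0.323% of all genes passed, 0.203% higher in liver and 0.12% lower. It was also the 1 of 10 in spleen against thymus, where 0.398% passed, 0.188% higher in spleen and 0.21% lower. In liver against spleen 0 of 10 passed, where 0.015% of genes did, and the adjusted count was also 0 with DESeq2 and with edgeR on the recovered reads. Before adjustment, 1, 2 and 1 of 10 had a limma-trend p below 0.05 in liver against thymus, spleen against thymus and liver against spleen. Of all genes tested, 11.6%, 11.7% and 3.03% did. These contrasts were known when the genes were chosen, so the counts are descriptions. The calls depended on the fit. Tspan13 was past the threshold in 5 of 20 alternatives in liver against thymus and in 6 of 20 in spleen against thymus, with fitted differences of 3.15 to 4.55 and 3.31 to 4.46. Among the 9 fits that left out 1 library, the call remained in the 1 without thymus replicate 3, and was lost in each of the other 8.

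**Figure D2:**
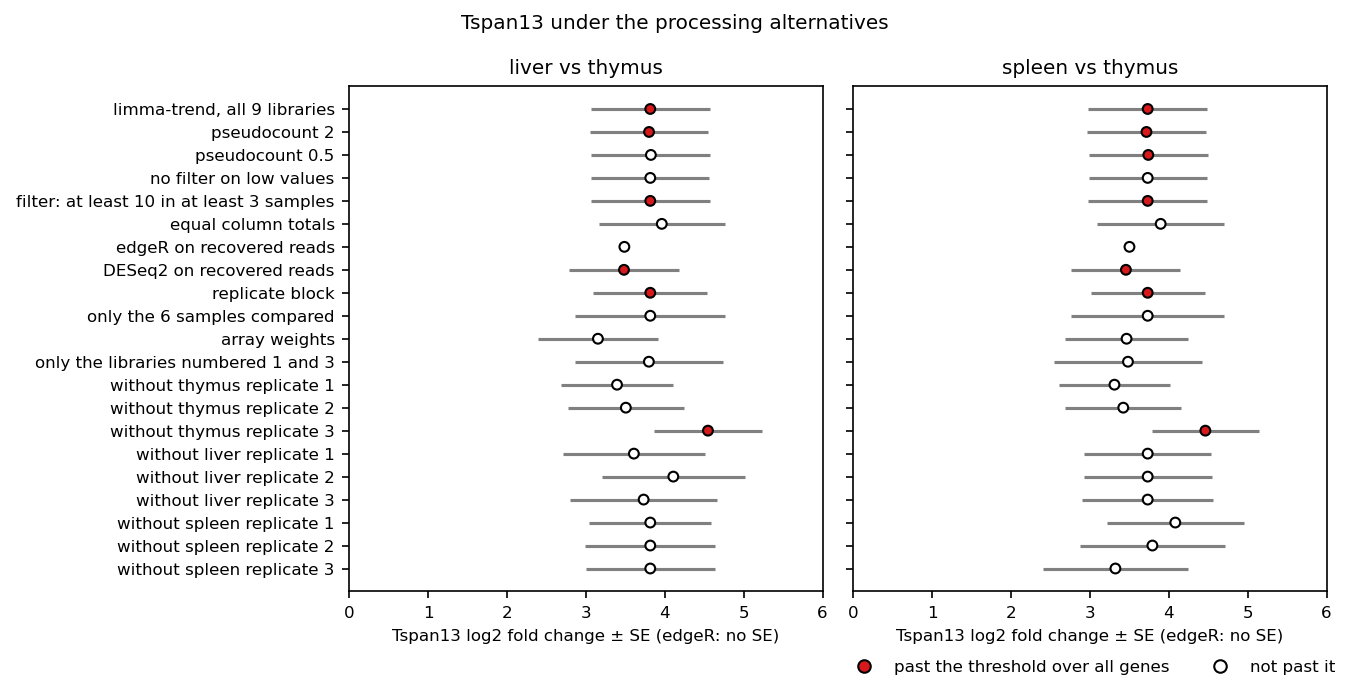
Fitted log2 difference of Tspan13 with its standard error (x axis) under each processing alternative (y axis), for liver against thymus on the left and spleen against thymus on the right. Filled points passed the threshold over all genes and open points did not, and all points lie between 3.15 and 4.55.

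Both thymus comparisons share the thymus libraries, so the calls in liver and in spleen are not independent. Among 9591 other genes with a mean value of at least 100, the 5 whose log2 values followed Tspan13 most closely over the 9 libraries were Siah1a, Lman1, Ung, Abcb8 and Tlr1, with Pearson correlations of 0.982, 0.977, 0.972, 0.970 and 0.968. The libraries differ in depth and in the number of genes found, which all these genes share. These genes were picked for following Tspan13, so their lower thymus means come with that choice and are no separate result. Siah1a, a ubiquitin ligase gene, had a thymus mean of 42.5 ± 47.1, a liver mean of 547 ± 333 and a spleen mean of 469 ± 140 (SD, n = 3 each). Lman1, which encodes a cargo receptor between the endoplasmic reticulum and the Golgi, had means of 137 ± 150, 1361 ± 523 and 1062 ± 434 in the same order. Of the other members, Cd82 came nearest to Tspan13, with a correlation of 0.837 and rank 272 among those genes.

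The leukocyte tetraspanins made up most of the summed signal of the 10 genes, which leaves out the other tetraspanins in the table. CD53 and CD37 are largely restricted to blood cells, CD82 is a broadly expressed tetraspanin that acts as a costimulatory molecule on T cells, and TSPAN32 is restricted to haematopoietic cells. Per kilobase of exon, Cd53 held 70.3% to 86.5% of the summed value of the 10 genes in each library, Cd37 5.93% to 15.2% and Cd82 2.5% to 7.84%. Tspan13 held 0.137%, 0.180% and 0.694% of it in thymus replicates 1, 2 and 3 and 1.84% to 5.0% in liver and spleen. Ranked per kilobase among the genes tested, Cd53 was above the 99th percentile in every library. Tspan13 stood between percentiles 37.7 and 54.2 in thymus and between 78.8 and 94.7 in liver and spleen.

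**Figure D3:**
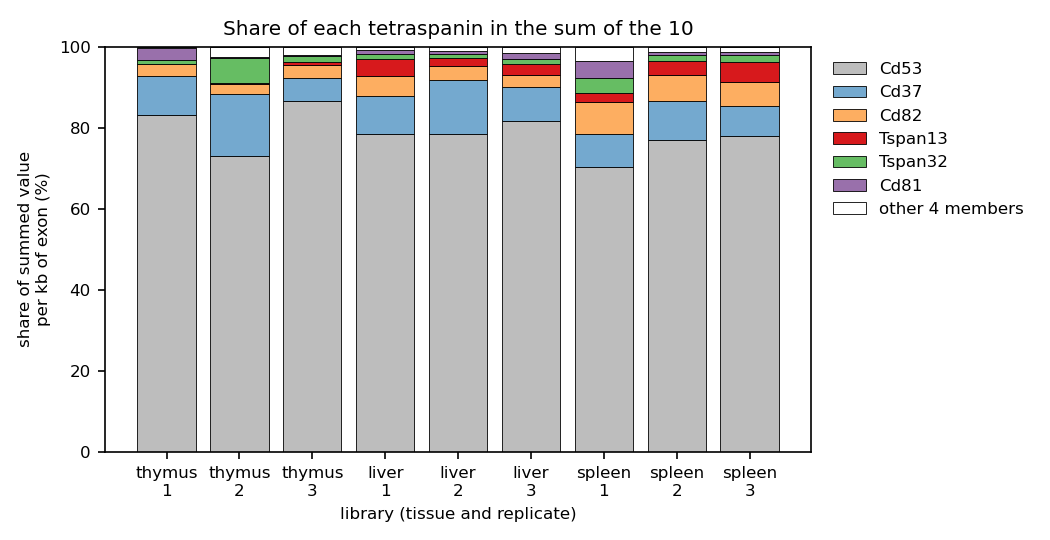
Share of each gene in the summed value per kilobase of exon of the 10 tetraspanins (y axis, percent), by library (x axis, tissue and replicate), as stacked bars. Cd53 takes 70.3% to 86.5% of every bar, and the Tspan13 segment is at most 0.694% in thymus and at least 1.84% in liver and spleen.

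Cd53 was at 24923, 19558 and 25654 in thymus replicates 1, 2 and 3. It was at 26451, 29908 and 34914 in liver and at 19116, 21235 and 27311 in spleen. The 3 liver values lay above the 3 thymus values, and the spleen values overlapped both. The fitted difference was 0.38 (SE 0.20) in liver against thymus, 0.09 above the median of all genes, and -0.06 (SE 0.20) in spleen against thymus, or 0.11 with equal column totals. Its spread within tissues, an SD of 0.23 on the log2 scale, was smaller than that of all but 1.53% of the genes tested.

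Cd82 was lowest in thymus, intermediate in liver and highest in spleen, with no overlap between any pair of tissues. It was at 1577, 1153 and 1564 in thymus replicates 1, 2 and 3, at 2793, 2226 and 2199 in liver and at 3681, 3143 and 3528 in spleen. The means were 1432 ± 241.4, 2406 ± 335.7 and 3451 ± 277.5 (SD, n = 3 each), so liver was 1.68-fold and spleen 2.41-fold above thymus. The fitted differences were 0.75 (SE 0.36) and 1.28 (SE 0.36), and -0.53 (SE 0.36) in liver against spleen. Neither thymus difference passed the threshold over all genes with limma-trend, and DESeq2 on the recovered reads was the 1 of 20 alternatives in which the spleen difference did. Without spleen replicate 1 the spleen difference was 1.23. The spread of Cd82 within tissues, 0.20 on the log2 scale, was the smallest of the 10.

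Cd37 was at 5796, 8222 and 3554 in thymus replicates 1, 2 and 3. In liver it was at 6425, 10461 and 7316, and in spleen at 4586, 5341 and 5421. The liver values lay above all spleen values, by a fitted 0.63 (SE 0.33), and the thymus values overlapped those of both other tissues. Exons of Tead2 overlap those of Cd37 on the opposite strand, and no source used here says whether the counting used strand. Tead2 was at most 122.6 in any library, well under Cd37.

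Tspan32 encodes a protein described as a brake on T cell proliferation. It was at 985.4, 5993 and 1682 in thymus replicates 1, 2 and 3, at 1570, 1393 and 1842 in liver and at 3605, 1555 and 2024 in spleen. Thymus replicate 2 was the highest of the 9, and the tissues overlapped. The fitted difference was -0.43 (SE 0.57) in liver and 0.06 (SE 0.57) in spleen against thymus. The signs depended on single libraries and on the tool. Without thymus replicate 2 the differences were 0.31 and 0.80. The spleen difference was -0.50 without thymus replicate 1, -0.11 without thymus replicate 3, -0.28 without spleen replicate 1, -0.24 with edgeR and -0.30 with DESeq2. An antisense transcript, Tspan32os, overlaps its exons and was at most 62.7 in any library.

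The broadly expressed scaffolds CD81, CD9 and CD151 are known as partners of co-receptors and integrins. CD81 is found on most lymphocytes, CD9 is known from membrane fusion at fertilisation, and CD151 binds laminin-binding integrins. Their SDs within tissues, 1.75, 2.20 and 1.79 on the log2 scale, were above the median of 1.31 over all genes tested. Cd81 was at 1452, 49.8 and 64.0 in thymus replicates 1, 2 and 3, at 620.3, 538.1 and 937.5 in liver and at 1893, 341.9 and 440.1 in spleen. Thymus replicate 1 was 29.2-fold above thymus replicate 2, and the tissues overlapped. The fitted difference of 2.01 (SE 1.14) in liver against thymus became 3.57 without thymus replicate 1 and 1.15 without thymus replicate 2, and it was 0.39 with edgeR and 0.38 with DESeq2. In spleen it was 1.97 (SE 1.14), 0.75 with edgeR, 0.71 with DESeq2 and 1.21 without spleen replicate 1, where the summed myeloid transcripts were highest. Exons of R74862 overlap those of Cd81 on the opposite strand, and R74862 reached 447.7 in liver.

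Cd9 was at 16.8, 714.3 and 283.2 in thymus replicates 1, 2 and 3. It was at 1.71, 68.6 and 55.6 in liver, on 2, 80 and 9 reads, and at 173.0, 149.3 and 142.1 in spleen. All 3 liver values lay below all 3 spleen values, with a fitted difference of -2.82 (SE 1.74), and the thymus values overlapped both. In spleen against thymus the sign followed single libraries, at 0.02 over all libraries, -1.54 without thymus replicate 1, 1.12 without thymus replicate 2 and -0.07 without spleen replicate 1, and it was -1.09 with edgeR and -1.15 with DESeq2.

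Cd151 was at 80.7, 4.66 and 308.4 in thymus replicates 1, 2 and 3, at 142.6, 224.0 and 483.5 in liver and at 411.6, 233.9 and 346.6 in spleen. Thymus replicate 2 held 4 reads of it. The fitted differences were 2.26 (SE 1.39) in liver and 2.63 (SE 1.39) in spleen against thymus, and 0.65 and 1.02 without thymus replicate 2. With DESeq2 they were 1.11 and 1.31. Cd151 and its neighbour Tspan4, on the same strand of chromosome 7 at chr7:141475240-141493427, were both lowest in thymus by their means.

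CD63 marks late endosomes, lysosomes and the lytic granules of cytotoxic cells. Its transcript had between 0 and 184 reads per library, with 61 or more in 3 libraries (liver replicate 1 and spleen replicates 1 and 2) and 10 or fewer in the other 6. Cd63 had no read in thymus replicates 1 and 2, which allows up to 3 reads or values of 3.39 and 3.50, and was at 12.6 in thymus replicate 3. It was at 94.1, 1.69 and 0.787 in liver replicates 1, 2 and 3, where the last value stands for 0 reads. In spleen it was at 136.9 and 42.0 in replicates 1 and 2, with no read in replicate 3. The fitted differences of 1.67 and 2.90 against thymus had standard errors of 2.19, and without spleen replicate 1 the spleen difference was 1.44. Without liver replicate 1 the liver difference was -0.15, and with array weights -0.19. With DESeq2 the liver difference was 2.95. The residual spread of Cd63 was above that of 92.5% of the genes tested.

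Tspan31 lies beside the cell-cycle kinase gene Cdk4, and their exons overlap on opposite strands. It was at 10.1, 98.3 and 214.4 in thymus replicates 1, 2 and 3, at 104.4, 197.4 and 387.5 in liver and at 566.7, 33.6 and 121.6 in spleen. The tissues overlapped, and spleen replicates 1 and 2 were 16.8-fold apart. The fitted difference in liver against thymus was 1.70 (SE 1.5), and 1.09 with DESeq2. In spleen against thymus it was 1.11 (SE 1.5), 0.07 without spleen replicate 1 and -0.13 without thymus replicate 1. Cdk4 was at 2452 to 2949 in thymus, 1921 to 2676 in liver and 795.7 to 1432 in spleen, above Tspan31 in each tissue. Whether reads of the overlap were counted for either gene is not known, since the strand setting is not given.

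**Figure D4:**
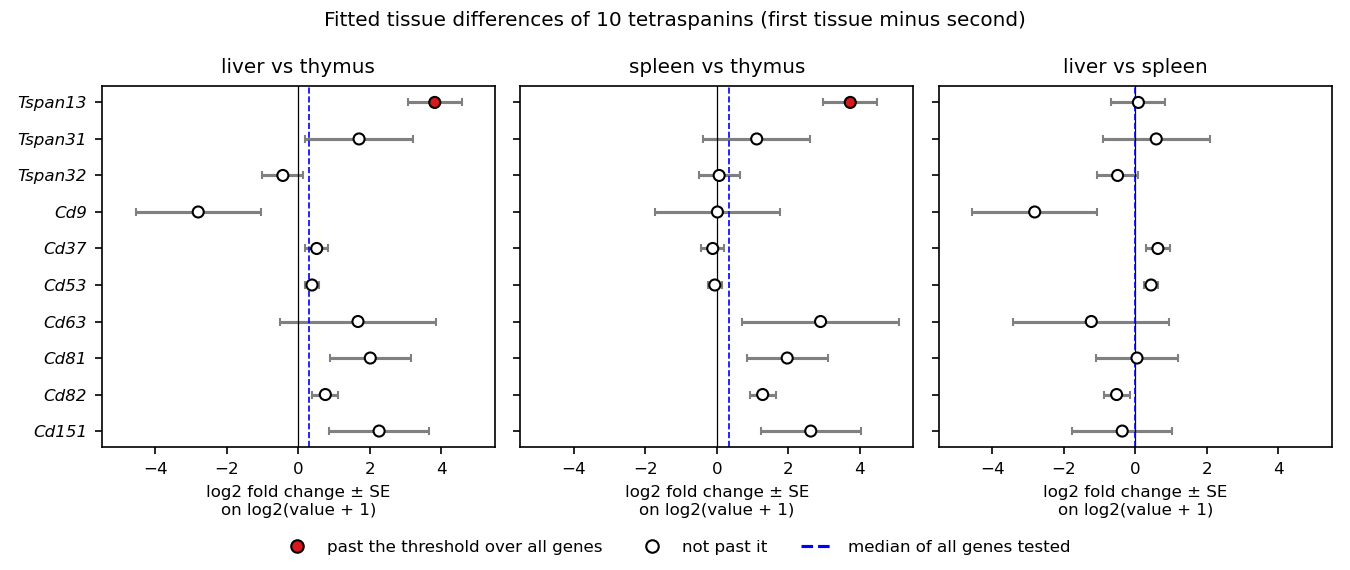
Fitted log2 difference with its standard error (x axis) of each of the 10 tetraspanins (y axis) in liver against thymus, spleen against thymus and liver against spleen, with the median of all genes as a dashed line. Tspan13, at 3.82 and 3.73, is the 1 filled point past the threshold in each thymus comparison, and the intervals of Cd9, Cd63, Cd81, Cd151 and Tspan31 are the widest.

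Over the 10 genes the median fitted difference was 1.21 in liver and 1.20 in spleen against thymus, with 8 of 10 above 0 in each. The liver median lies midway between Cd82 at 0.75 and Cd63 at 1.67 (SE 2.19), and Cd63 was at -0.15 without liver replicate 1. The 8 in spleen include Cd9 at 0.02 and Tspan32 at 0.06, both below 0 with edgeR and with DESeq2. Over all 13309 genes tested the medians were 0.29 and 0.33, with 7975 and 8151 genes above 0. In liver against spleen the median of the 10 was -0.16, with 5 above and 5 below 0. Over all genes tested it was -0.02, with 6503 above and 6806 below 0. The 3 values of liver lay above those of thymus in 3 of 10 (Tspan13, Cd53 and Cd82), where 9.61% of all genes did. Liver lay below thymus in 0, where 5.73% did, and 15.3% of genes did not overlap in either direction. The values of spleen lay above thymus in 2 of 10 (Tspan13 and Cd82), where 9.29% did, and below it in 0, where 6.03% did (15.3% in either direction). Every liver and spleen value lay above every thymus value in the same 2, where 4.07% did. Liver lay above spleen in 1 (Cd37), where 5.97% did, and below it in 2 (Cd9 and Cd82), where 6.77% did (12.7% in either direction). Replicates 1, 2 and 3 held the highest value of their tissue for 2, 3 and 5 of the 10 genes in thymus. The counts were 3, 2 and 5 in liver and 7, 0 and 3 in spleen. The share over all genes was not counted, so these are descriptions only. A residual spread below the median of all genes was found for 5 of 10.

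Of 21 other tetraspanin genes listed, 9 are in the table and 8 could be tested. In the 3 comparisons 0 of 8 passed the threshold with limma-trend, while 1, 1 and 0 had an unadjusted p below 0.05 in the order liver against thymus, spleen against thymus, liver against spleen. Of all genes tested, 11.6%, 11.7% and 3.03% did. DESeq2 on the recovered reads called Tspan4 in spleen against thymus. The 4 with the highest means were Tspan14, Tspan3, Tspan5 and Tspan4. Tspan14 and Tspan5 belong to the subgroup that escorts the sheddase ADAM10 to the cell surface. Tspan14 was at 273.6, 2117 and 1127 in thymus replicates 1, 2 and 3, at 1802, 1020 and 1090 in liver and at 317.5, 1015 and 692.6 in spleen. Its thymus values overlapped those of both other tissues, and its 3 liver values lay just above its 3 spleen values. For Tspan5 the thymus values were 24.7, 5.81 and 178.0, the liver values 56.5, 387.9 and 930.7 and the spleen values 211.7, 150.6 and 205.6 (limma-trend adjusted p 0.437 in liver and 0.520 for spleen, each against thymus). Tspan3 ran from 2.26 in thymus replicate 1 to 1734 in thymus replicate 2, which spans its values in every other library but liver replicate 1. Tspan4 was at 0.021, 5.82 and 16.4 in thymus, where the first value stands for 0 reads, at 64.4, 58.3 and 203.8 in liver and at 535.1, 114.2 and 10.1 in spleen. All 3 liver values of Tspan4 lay above the thymus values, with a fitted difference of 4.23 (SE 1.90, limma-trend adjusted p 0.410). Spleen replicate 1 had the highest Tspan4 of all libraries. Its exons overlap those of Chid1 on the opposite strand, at up to 1742 in thymus.

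**Figure D5:**
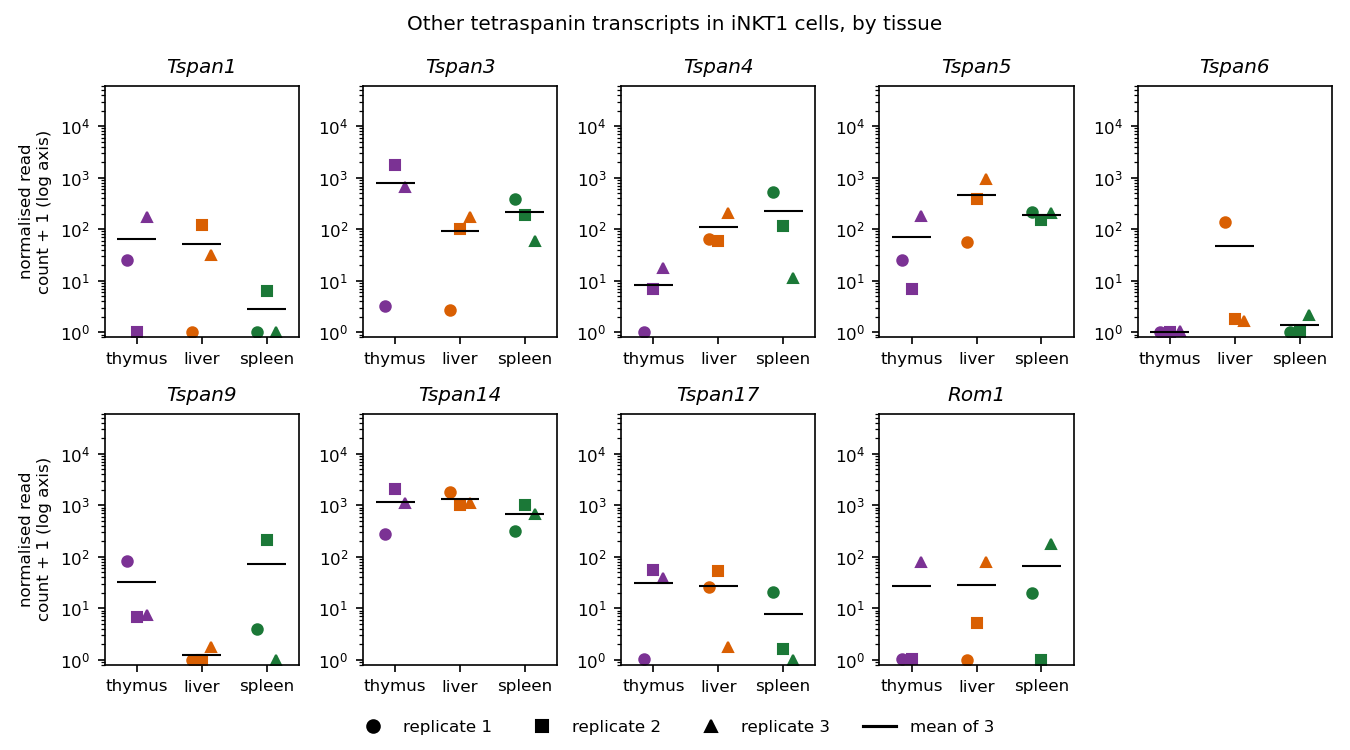
Normalised read count plus 1 on a log axis for the 9 other tetraspanin genes in the table, by tissue, with 1 point per library and a line at the mean of the 3. Tspan14 lies between 273.6 and 2117, and Tspan4 has all 3 liver points above its thymus points.

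Of 14 partner genes of tetraspanins (the immunoglobulin-domain proteins Igsf8 and Ptgfrn, the sheddases Adam10 and Adam17, integrin chains, Cd2, Cd4, Cd5 and Rac1), all 14 were tested and 0 passed in any comparison with limma-trend. Before adjustment, 3, 5 and 0 of the 14 had a p below 0.05, beside the same 11.6%, 11.7% and 3.03% of all genes. DESeq2 on the recovered reads called 1, Itga4, in both thymus comparisons, and limma-trend without thymus replicate 2 called 1, Cd4, in both. Itga4, the integrin α4 chain, named here after its values were seen, ranged over 566.2 to 1104 in the thymus libraries, 2303 to 11954 in those of liver and 1710 to 5705 in those of spleen, with no overlap of thymus with either (limma-trend adjusted p 0.111 for liver, 0.173 for spleen). Of 12 genes of late endosomes and vesicle release, where CD63 resides, 0 of 12 tested passed in any comparison, and the same count of 0 came from DESeq2 and edgeR on the recovered reads. Before adjustment, 1, 3 and 0 of the 12 had a limma-trend p below 0.05, where 11.6%, 11.7% and 3.03% of all genes did. The median differences of the partner list were 0.31, 0.18 and 0.06 and those of the vesicle list 0.23, 0.05 and -0.01 in liver against thymus, spleen against thymus and liver against spleen, beside 0.29, 0.33 and -0.02 over all genes.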

How the data were processed

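RNA-seq was measured in 9 libraries of iNKT1 cells, 3 each from thymus, liver and spleen. The deposited values are a signal, normalised read counts per gene that are not whole numbers, and the scaling step is not given in the sources used here. Per the submitters' processing notes, mm10, Trimmomatic 0.33, TopHat2 2.1.0, HTSeq 0.6.1 and edgeR were used, with no role stated. Each column was matched to a library by tissue and replicate number, and 1 thymus column has an additional letter in its prefix that the labels do not explain. Symbols matched 13359 of 14004 identifiers.

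Low values of each library lie on equal steps. Reads were recovered by rounding over the step, and 93.7% of the 15737 values worth 1 to 20 reads came out whole to a tolerance of 0.1, with 74.2% in liver replicate 3 and at least 98.1% elsewhere. Intervals and limits from reads cover counting error only.

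All 9 libraries entered limma-trend (limma 3.58.1, R 4.3.3) with log2(value + 1) as the response and a term per tissue. Genes entered if 3 or more libraries reached a value of 1. Tests are two-sided with Benjamini-Hochberg adjustment over all genes and a threshold of 0.05. Fold changes on this scale understate low genes. Fit and read recovery were tested on simulated data. The alternatives were the pseudocount, filter and scaling, edgeR 4.0.16 and DESeq2 1.42.0 on recovered reads, a replicate block, array weights, fewer libraries, and leaving out each library. The members and lists were chosen with earlier results of these data known. Named are all 10 members, the 4 most abundant other tetraspanins, genes of a list past the threshold (up to 4 per list), and the 5 genes most like Tspan13. Levels were compared between genes per kilobase of GENCODE M21 exon. The planned comparison of protein sequences was not run, since no protein sequences were used here.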

Additional observations from a re-analysis of the deposited data

How the results depend on the processing

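The count of members past the threshold was 1 (Tspan13) in each thymus comparison. In liver against thymus it fell to 0 with a pseudocount of 0.5, no filter, equal column totals, edgeR on recovered reads, only the 6 samples compared, array weights, or only the libraries numbered 1 and 3, and ran from 0 to 1 over the 9 fits that left out 1 library. In spleen against thymus it was 0 with no filter, equal column totals, edgeR on recovered reads, only the 6 samples compared, array weights, or only the libraries numbered 1 and 3, and 2 with DESeq2, and again ran from 0 to 1 when 1 library was left out. With the replicate block it was 1, 1 and 0 in the 3 comparisons, as without it. Same-numbered libraries of different tissues deviated together with correlations of -0.0007 to 0.0891, and differently numbered ones with -0.0866 to 0.0484. Of the 9 libraries, 7 correlated best with their own number. The main fit did not pair the samples by number, and whether the numbers stand for a pairing was not settled. For the other tetraspanins the count of 0 became 1 with DESeq2 in spleen against thymus. For the partner genes it became 1 with DESeq2 in both thymus comparisons and ran from 0 to 1 when 1 library was left out. Over all genes, 43, 53 and 2 passed, against 450, 507 and 23 with DESeq2, 22, 37 and 2 with edgeR and 42, 55 and 4 with the block. Of 600 fitted differences of members over 20 alternatives, 29 lost a call, all of Tspan13, and 41 changed sign, all of differences that had no call to lose. Equal column totals moved the median of all genes in liver and spleen against thymus to 0.43 and 0.48, and DESeq2 to -0.04 and -0.02. Depth limits liver replicate 3, where 1 read is worth a value of 6.04.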
